A study of Rattus norvegicus with 18 samples.

Results

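Beta-defensin genes (symbols starting with Defb) and trace amine-associated receptor genes (symbols starting with Taar) were followed in accumbens tissue of male rats, from the ventral striatum. The members were all genes with such a platform symbol on features that carry exactly 1 symbol. Each gene was read on 1 feature, its brightest by mean where the array has several. This gave 55 genes, 38 Defb and 17 Taar, of 22093 genes in all. The arrays came from a study of methamphetamine self-administration in rats in which footshock was the adverse consequence of drug taking. All 18 rats were male Sprague-Dawley animals with 1 whole-transcript Affymetrix array each. The 6 control, 6 shock resistant and 6 shock sensitive rats were kept for RNA quality and integrity. The labels name no genotype, time point or age. They also do not say what the control rats received or how intake under shock was measured.

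Beta-defensins are small cationic peptides with a fold held by disulphide bonds. They are secreted by epithelia, where they act against microbes, and many rodent members are made in the epididymis and coat sperm. Trace amine-associated receptors are G protein-coupled receptors for biogenic amines. In rodents all of them except Taar1 serve as olfactory receptors in the nose, and Taar1 is a receptor for trace amines in brain monoamine systems that amphetamines also activate. Neither family is known as an abundant product of accumbens tissue. Levels are therefore given beside 1153 negative control features of the same arrays, named so on the array. What their probes match is not stated.

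Values are on the log2 scale. The medians of single arrays ran from 5.43 to 5.56, and any 2 arrays correlated at 0.992 to 0.997 over 70580 features that are not independent. Precision is set by the 6 rats of each group. Markers of medium spiny neurons, the main striatal neurons, were high in all groups, with array means over 15 genes of 11.4 to 13.0 in control, 12.6 to 13.5 in shock resistant and 11.2 to 13.0 in shock sensitive rats. They were lowest on control replicate 1 and shock-sensitive replicate 4. All 5 measured epithelial markers (Epcam, Krt14, Krt8, Krt18 and Cdh1) lay below the negative control median. Their mean per array was 4.95 to 5.07 in control, 4.96 to 5.20 in shock resistant and 4.95 to 5.08 in shock sensitive rats. Of 8 choroid plexus markers, 7 had a mean below the negative control median, with Ttr, the transthyretin gene, the exception. Their array mean was 8.83 on shock-resistant replicate 4 against 5.22 to 5.81 on the other arrays, and 7 of the 8 had a higher mean in the shock resistant group than in the control group (median difference 0.39), with 0 at an unadjusted p under 0.05. In whole tissue, fewer cells of a type and less RNA per cell cannot be told apart.

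Both families read low beside the negative control features. The median of the negative controls was 6.37, with quartiles at 5.29 and 7.52, and 47.6% of all genes lay below that median. The 38 Defb genes had a median level of 4.87, and 35 of them lay below the negative control median. The 17 Taar genes had a median level of 4.36, and all 17 lay below the lower quartile of the negative controls. A member was called above background in a group when it passed the 95th percentile of the negative controls on at least 4 of that group's 6 arrays. That percentile ran from 9.90 to 10.58 among arrays, and 0 of 55 members passed it on any array. Brain markers such as Aqp4 (9.52), P2ry12 (9.03) and Gjb6 (7.77) also had means below that range, while others such as Slc1a2 (16.3) lay above. Missing this limit therefore does not show that a gene is silent. With the negative control median as the limit, 4 members passed.

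The 4 were Defb18, Defb25, Defb20 and Defb40, with means over 18 arrays of 6.95, 6.71, 6.69 and 6.34. Of the negative control features, 37.2% had a mean above that of Defb18, which ranged from 6.35 to 7.81 over all arrays. Defb18 was also variable within groups, at 6.78 ± 0.36 (SD) in the 6 control, 7.15 ± 0.41 in the 6 shock resistant and 6.92 ± 0.37 in the 6 shock sensitive rats. The lowest Defb genes were Defb19 at 3.55, Defb52 at 3.68 and Defb29 at 3.73. A level on an array also depends on the probes, so the order of genes is not an order of RNA amounts.

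Among the receptors, Taar9 read highest at 5.21, followed by Taar7e at 4.89 and Taar8a at 4.76. The lowest were Taar3 at 3.28, Taar2 at 3.43 and Taar6 at 3.60. Taar1, the family's member with a known role in brain, read 4.13, and 92.4% of negative control features lay above it. Among rats of 1 group, the median within-group SD was 0.164 for Defb and 0.160 for Taar genes, beside 0.130 for all genes. The other genes below the negative control median had a median SD of 0.116, and single negative control features one of 0.499.

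**Figure D1:**
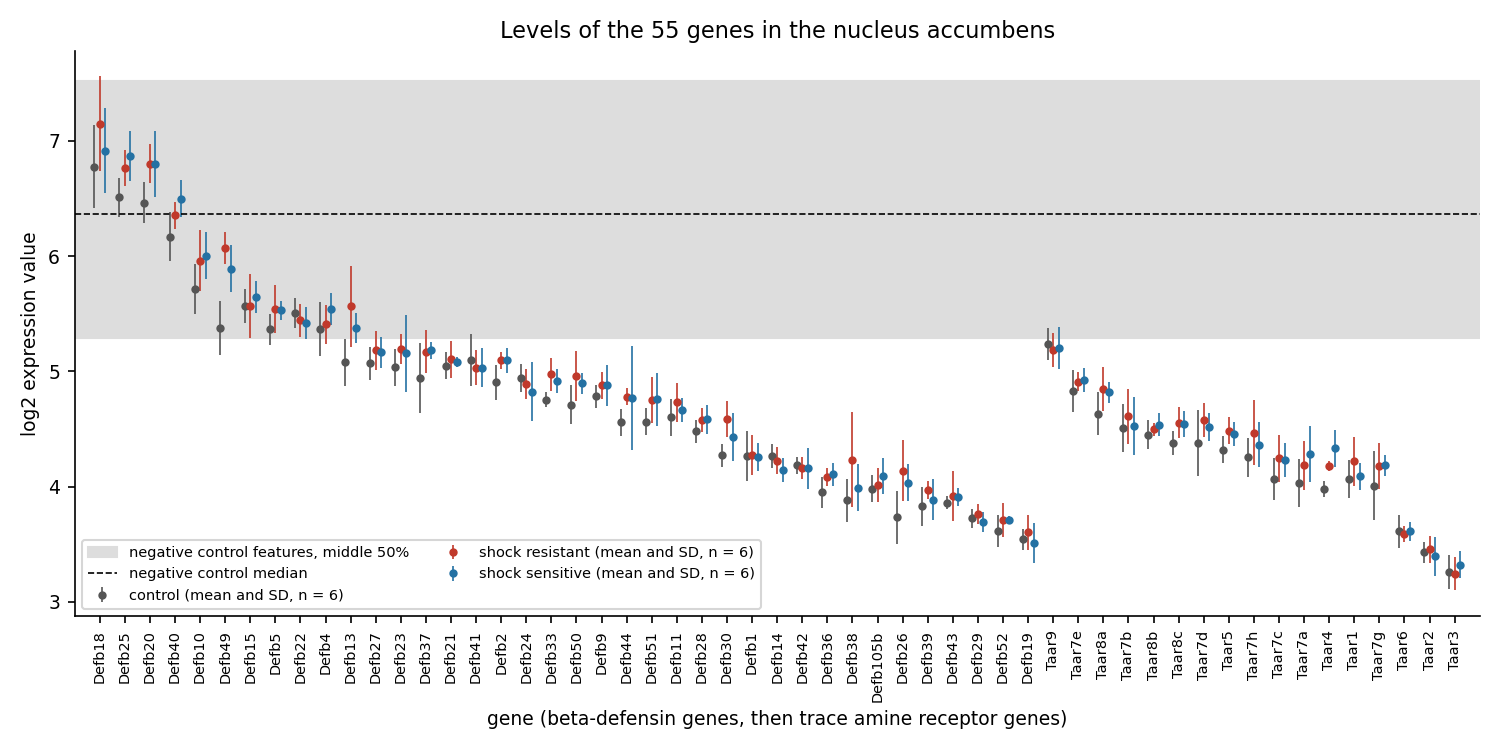
Mean log2 value with SD of each of the 55 genes (x axis, Defb genes and then Taar genes, by falling level) in control, shock resistant and shock sensitive rats (6 arrays each). The shaded band spans the quartiles of the negative control features, 5.29 to 7.52, and the dashed line their median of 6.37; the 17 Taar genes lie below the band.

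Shock resistant rats were compared with controls. Drug, shock and continued intake cannot be told apart here, because what the control rats received is not stated. One gene of the families, Defb49, rose in this comparison, and none fell. Defb49 read 4.99 to 5.63 in controls (median 5.44) and 5.95 to 6.30 in shock resistant rats (median 6.01). The groups did not overlap, and all 6 shock resistant arrays lay above all 6 controls. The difference was 0.69 ± 0.11 (SE) on the log2 scale, or 1.62-fold, with an adjusted p of 0.0388 (limma, Benjamini-Hochberg over all genes). The shock resistant mean of 6.07 was below the negative control median, and 63.5% of negative control features had a higher mean than Defb49. The call was lost, with an adjusted p above 0.05, under quantile normalization (0.0533) and with centring on the negative controls (0.146) or on other low genes (0.0572). It was lost too with all features tested (0.0702), with the 2 groups alone (0.0935) and with a replicate block (value in the last section). It was also lost when any of 13 of the 18 arrays was left out, among them each of the 6 shock resistant arrays, and the adjusted p ranged from 0.0140 to 0.154 over the 18 fits. Without shock-resistant replicate 4, the array with the high choroid plexus markers, Defb49 read 0.72 higher with an adjusted p of 0.0543. In that fit 19 of the 55 members were past an unadjusted p of 0.05, beside 8.20% of all genes higher and 5.40% lower.

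The sequence before the Defb49 start is shown because Defb49 was the member that passed the threshold. RefSeq places it on the minus strand of chromosome 9 in the assembly GRCr8 (chr9:28333899-28334148). The array's own build is not stated. The 250 bases, 5′ to 3′, hold 1 TATAAA motif, in capitals, which begins 41 bases before the start:
Defb49: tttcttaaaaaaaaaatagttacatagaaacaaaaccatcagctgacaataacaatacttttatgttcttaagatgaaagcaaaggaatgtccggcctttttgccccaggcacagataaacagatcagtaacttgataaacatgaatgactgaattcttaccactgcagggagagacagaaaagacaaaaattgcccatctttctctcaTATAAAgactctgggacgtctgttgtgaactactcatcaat

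TATAAA was searched on both strands in the 250 bases before the start of the 40 members that matched a RefSeq promoter, 25 Defb and 15 Taar. It was found in 10 of them: Defb18, Defb20, Defb21, Defb22, Defb30, Defb49, Taar2, Taar8a, Taar8b and Taar8c. Of all 33469 promoters in the table, 12.9% hold it. The E-box CACGTG was found in 3 members (5.59% of all promoters), the AP-1 motif TGACTCA in 2 (4.05%) and the full cyclic AMP response element TGACGTCA in 0 (1.59%). A match is a description of these letters only.

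Apart from Defb49, the members differed from controls by less, and none passed the adjusted threshold. The median difference in shock resistant rats was 0.14 for Defb and 0.15 for Taar genes, with 32 of 38 and 14 of 17 positive. At an unadjusted p under 0.05, 12 Defb genes and 4 Taar genes were higher and 0 were lower, 16 of 55 in all. Of all genes, 7.22% were higher at that level and 4.20% lower, and 0.0181% (4 genes) passed the adjusted threshold. Under quantile normalization the shares of all genes were 3.89% and 4.39%, and 9 Defb genes and 1 Taar gene were higher. With each array centred on its median they were 3.30% and 7.77%, again with 9 and 1 higher. Against the same controls, all 15 medium spiny neuron markers also read higher (median 0.38, with 1 at an unadjusted p under 0.05), and their part in the members' differences was not tested. Without control replicate 1 and shock-sensitive replicate 4, where those markers were lowest, 20 members were past an unadjusted p of 0.05 and Defb49 had an adjusted p of 0.0466. In that fit 7.78% of all genes were higher and 4.01% lower at the unadjusted level, and 4 genes passed the adjusted threshold.

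Defb13 came next to Defb49. It read 4.78 to 5.27 in controls (median 5.16) and 4.90 to 5.84 in shock resistant rats (median 5.67). The groups overlapped through shock-resistant replicate 3, at 4.90, while the other 5 arrays lay above all controls. The difference was 0.49 ± 0.13 (SE), with an adjusted p of 0.269, or 0.0382 without that array (limma).

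Defb30 read 4.16 to 4.41 in controls (median 4.27) and 4.37 to 4.76 in shock resistant rats (median 4.58), a difference of 0.32 ± 0.09 (SE) with an adjusted p of 0.272. Defb33 read 4.70 to 4.84 in controls (median 4.73) and 4.78 to 5.21 in shock resistant rats (median 4.97), a difference of 0.22 ± 0.06 (SE) with the same adjusted p of 0.272. In each, 5 of 6 shock resistant arrays lay above all controls. Defb2, named after its values were seen, was the other Defb gene whose groups did not overlap, at 4.66 to 5.04 against 5.05 to 5.24, with an adjusted p of 0.322. Taar4, described below with the shock sensitive rats, was the Taar gene whose groups did not overlap. Of all genes, 0.516% did not overlap with shock resistant rats higher, and 3 of the 55 members did. With shock resistant rats lower it was 0.172% of genes and 0 members.

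The members with the smallest p among those that read lower were Defb22, Defb41, Defb14 and Taar9. Defb22 belongs to the sperm-coating defensins of the epididymis, and the ranges of all 4 overlapped between the groups. Their differences were −0.06, −0.07, −0.04 and −0.05, with adjusted p from 0.785 to 0.834 (limma). Defb1, the defensin that epithelia such as the kidney make constitutively, read 3.97 to 4.50 in controls (median 4.29), 4.07 to 4.53 in shock resistant rats (median 4.29) and 4.03 to 4.37 in shock sensitive rats (median 4.29). Its differences from control were 0.01 ± 0.10 and −0.003 ± 0.10 (SE), with adjusted p of 0.970 and 0.997 (limma).

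Taar1 read 3.88 to 4.27 in controls (median 4.08), 3.88 to 4.43 in shock resistant rats (median 4.28) and 3.93 to 4.28 in shock sensitive rats (median 4.09). The 3 groups overlapped widely, although 3 shock resistant arrays lay above all controls. The differences were 0.15 ± 0.09 in shock resistant and 0.02 ± 0.09 in shock sensitive rats (SE), with adjusted p of 0.537 and 0.980 (limma). A p that misses the threshold does not show that the groups were alike.

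**Figure D2:**
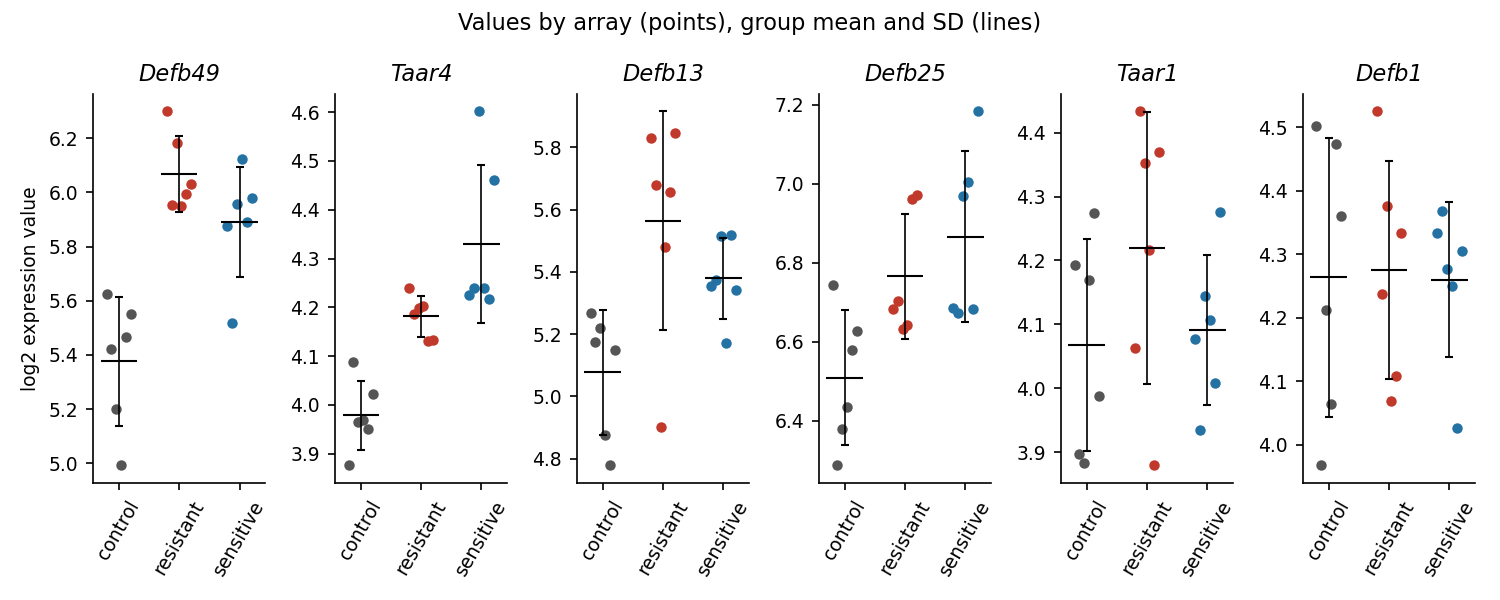
Log2 value on each array (points, 6 per group) with the group mean and SD (lines) for Defb49, Taar4, Defb13, Defb25, Taar1 and Defb1; the y axes differ. For Defb49 the shock resistant arrays, 5.95 to 6.30, all lie above the controls, 4.99 to 5.63, while the groups of Taar1 and Defb1 overlap.

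Shock sensitive rats were compared with the same controls, so the 2 comparisons are not independent. None of the 55 members passed the adjusted threshold here, and neither did any of the 22093 genes (0%). At an unadjusted p under 0.05, 11 Defb and 2 Taar genes were higher and 0 were lower, beside 4.56% of all genes higher and 1.53% lower. Under quantile normalization the shares were 2.62% and 1.92%, with 8 Defb genes and 1 Taar gene higher and 1 Defb gene lower. With array medians centred they were 2.45% and 2.47%, with 10 and 1 higher and 1 Defb gene lower. The median differences were 0.12 for Defb and 0.11 for Taar genes, with 30 of 38 and 15 of 17 positive. Of the 15 medium spiny neuron markers, 14 read lower than in controls here (median −0.24), and their part was not tested. Without the 2 arrays where they were lowest, 15 members were past an unadjusted p of 0.05, beside 4.80% of all genes higher and 1.89% lower.

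Taar4, which detects phenylethylamine in the mouse nose, had the smallest p of the members. It read 3.88 to 4.09 in controls (median 3.97), 4.13 to 4.24 in shock resistant rats (median 4.19) and 4.22 to 4.60 in shock sensitive rats (median 4.24). Both shock groups lay wholly above the controls, and shock-sensitive replicates 3 and 6 were the highest, at 4.60 and 4.46. The difference was 0.35 ± 0.06 (SE) in shock sensitive and 0.20 ± 0.06 (SE) in shock resistant rats, with adjusted p of 0.214 and 0.288 (limma). Taar4 was the only member whose groups did not overlap in the shock sensitive comparison, beside 0.344% of all genes higher and 0.0362% lower. Of the negative control features, 91.8% had a higher mean than Taar4.

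The Taar4 stretch, on the minus strand at chr1:23301332-23301581 (RefSeq, GRCr8), is shown because this receptor separated the controls from both shock groups. It holds none of the 4 motifs searched on either strand:
Taar4: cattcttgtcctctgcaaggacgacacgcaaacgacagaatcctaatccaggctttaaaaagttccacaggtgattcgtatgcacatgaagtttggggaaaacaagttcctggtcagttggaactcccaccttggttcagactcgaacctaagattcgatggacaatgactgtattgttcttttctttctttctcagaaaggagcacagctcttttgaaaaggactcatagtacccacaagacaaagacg

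Defb49 read 5.52 to 6.12 in shock sensitive rats (median 5.92), and 5 of 6 arrays lay above all controls. Its difference from control was 0.51 ± 0.11 (SE), with an adjusted p of 0.403 (limma). Defb25 read 6.29 to 6.75 in controls (median 6.51) and 6.67 to 7.18 in shock sensitive rats (median 6.83), a difference of 0.36 ± 0.10 (SE) with an adjusted p of 0.568. Defb40 read 5.92 to 6.44 in controls (median 6.17) and 6.35 to 6.77 in shock sensitive rats (median 6.47), a difference of 0.33 ± 0.09 (SE) with the same adjusted p. All 6 shock sensitive arrays of each lay above the control median, and 3 lay above all controls. The members with the smallest p among those that read lower were Defb14, Defb24, Defb22 and Defb41, with differences of −0.12, −0.12, −0.08 and −0.07 and adjusted p from 0.814 to 0.950.

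With both shock groups pooled against control, 15 Defb and 4 Taar genes were higher at an unadjusted p under 0.05 and 0 were lower, beside 7.15% of all genes higher and 2.61% lower. Those shares were 3.56% and 3.03% after quantile normalization and 3.29% and 5.19% with array medians centred, where 12 and 16 members were higher and 1 was lower. None of the members passed the adjusted threshold, beside 0.00453% of all genes (1 gene). In Taar4 the 12 shock arrays lay above all 6 controls, as in 0.0905% of all genes, and 0.00453% of genes lay wholly below. Defb49 came closest, at 0.60 ± 0.09 (SE) with an adjusted p of 0.0537, and Taar4 followed at 0.28 ± 0.05 (SE) with 0.125 (limma). The adjusted p of Defb49 was 0.0377 with the negative control median as a covariate, 0.0492 with trend and robust variance, 0.0137 with array weights, 0.0427 with the first residual principal component and 0.0165 without shock-sensitive replicate 2. The moderated F test over the 3 groups passed 0 members, beside 0.00905% of all genes, and gave Defb49 an adjusted p of 0.0826. At an unadjusted p under 0.05 it gave 11 Defb and 3 Taar genes, beside 8.61% of all genes.

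Shock resistant and shock sensitive rats were compared to ask which genes separate the 2 groups named for their response to shock. The median difference was 0.01 for both families, with 33 of 55 members positive. None passed the adjusted threshold, as was so for all genes (0%), no member separated the groups (0.131% of all genes did with shock resistant rats higher and 0.0815% lower), and 1 member was past an unadjusted p of 0.05, beside 2.63% of all genes higher and 3.77% lower in shock resistant rats. That member was Taar4, 0.15 ± 0.06 (SE) lower in shock resistant rats with an adjusted p of 0.753 (limma). The higher members with the smallest p were Defb30, Defb49, Defb38 and Defb13, with differences of 0.16, 0.18, 0.24 and 0.19 and adjusted p from 0.786 to 0.839. Below Taar4, those that read lower in shock resistant rats were Defb40, Defb4 and Taar3, with differences of −0.15, −0.13 and −0.08 and adjusted p from 0.809 to 0.895.

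**Figure D3:**
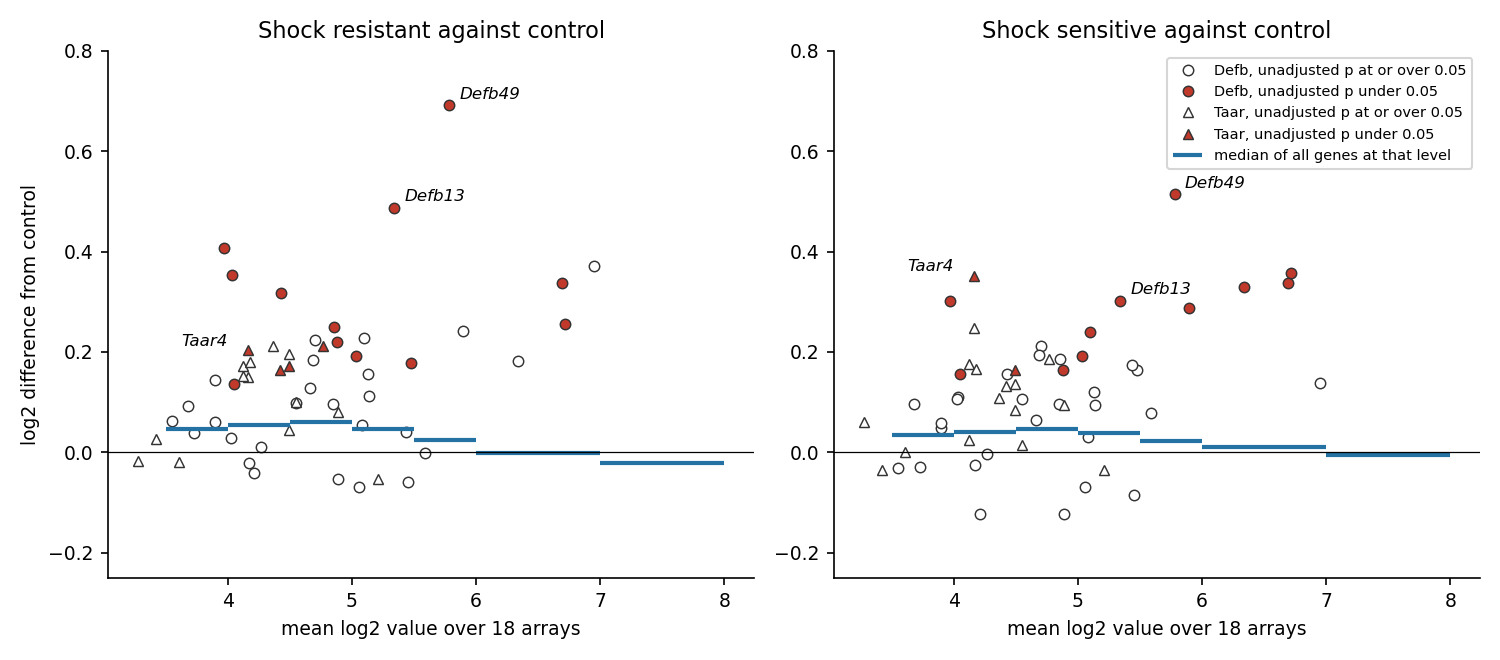
Log2 difference from control (y axis) against the mean log2 value over 18 arrays (x axis) for the 55 genes, in shock resistant (left) and shock sensitive rats (right); filled symbols have an unadjusted p under 0.05, and blue lines give the median difference of all genes within each interval of level. Defb49 is highest in both panels, at 0.69 and 0.51, and the blue lines lie slightly above 0 at low levels.

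Genes of other kinds at the same low levels also read slightly higher in the shock groups, while genes at higher levels read slightly lower. The 10468 other genes below the negative control median had a median difference of 0.047 in shock resistant rats, with 12.3% higher and 1.25% lower at the unadjusted 0.05 level. The 11573 genes at or above it had a median of −0.030, with 2.57% higher and 6.89% lower. By level, the share of all genes that were higher was 14.5% between 4 and 4.5, 15.5% between 4.5 and 5, 5.21% between 6 and 7 and 2.14% between 8 and 10. In shock sensitive rats 7.96% of the other low genes were higher and 0.994% lower, with a median of 0.037. Quantile normalization brought the median of the other low genes to 0.0008 in shock resistant rats, with 4.56% higher and 4.12% lower, while the medians of the Defb and Taar genes were then 0.090 and 0.101. When each array was centred on those other low genes, the medians of the 2 families were 0.076 and 0.087, and their own median was −0.018. In shock sensitive rats the family medians were 0.083 and 0.070 after quantile normalization and 0.064 and 0.057 after that centring. The family medians against control were positive in each scaling tried.

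Of 1128 olfactory receptor genes, 152 were higher and 9 lower in shock resistant rats at an unadjusted p under 0.05, with a median difference of 0.071. In shock sensitive rats the counts were 105 and 8. Quantile normalization left 87 higher and 34 lower in shock resistant rats, with a median of 0.021. Of the vomeronasal receptors, 10 of 81 Vom1r genes were higher and 1 lower, and 12 of 67 Vom2r genes were higher and 2 lower in shock resistant rats. Of 35 bitter taste receptor (Tas2r) genes 6 were higher and 0 lower, and the 3 Tas1r genes gave 0 in either direction.

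Of the 1153 negative control features, 5.72% were higher and 3.82% lower in shock resistant rats at an unadjusted p under 0.05, with a median difference of 0.015 and 1 feature past the adjusted threshold. In shock sensitive rats 5.03% were higher and 3.38% lower, with a median of 0.015. Their array medians ran from 6.31 to 6.50 in control, 6.30 to 6.48 in shock resistant and 6.27 to 6.52 in shock sensitive rats, so the 3 groups overlapped.

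Array by array, the median over the 17 Taar genes was 4.19 to 4.28 in controls and 4.32 to 4.52 in shock resistant rats, with all 6 shock resistant arrays above every control. Shock sensitive rats ran from 4.24 to 4.49 and overlapped the controls. The median over the 38 Defb genes was 4.68 to 4.84 in control, 4.75 to 5.03 in shock resistant and 4.79 to 5.07 in shock sensitive rats, with overlap in both comparisons. The median of the other low genes was 4.64 to 4.70, 4.67 to 4.79 and 4.64 to 4.77 in the same order. Over the 18 arrays the Defb median followed the median of the other low genes at Pearson r = 0.86 (Spearman rho 0.85) and the Taar median at 0.76 (0.69), and the 2 families followed each other at 0.80 (0.77). With the negative control median the values were −0.03 for Defb and 0.09 for Taar genes. These describe arrays that share labelling and scaling across all features and include the differences between groups.

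**Figure D4:**
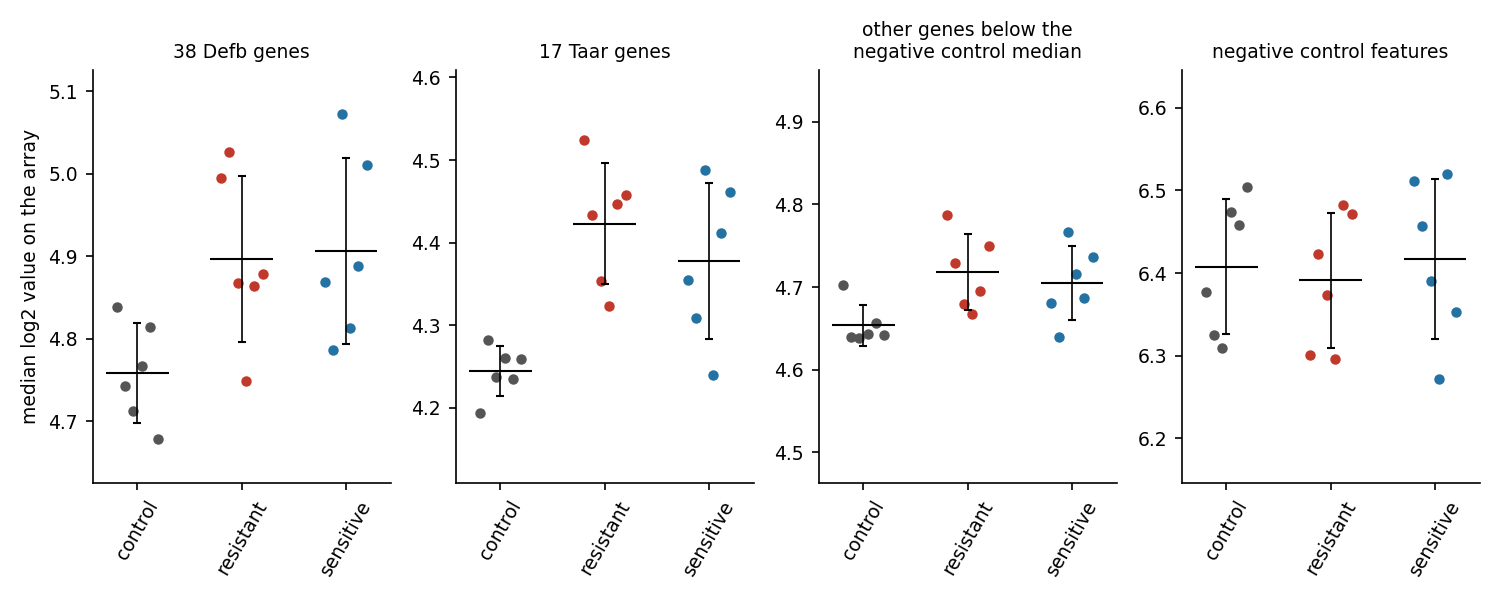
Median log2 value on each array (points, 6 per group) with the group mean and SD (lines) over the Defb genes, the Taar genes, the other genes below the negative control median and the negative control features; every y axis spans the same width. The Taar medians of shock resistant rats, 4.32 to 4.52, lie above all control medians, 4.19 to 4.28, while the negative control medians overlap among groups.

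By position in RefSeq (GRCr8, used for order only), the 17 Taar genes lie on chromosome 1, and the Defb genes lie on chromosomes 16 (19 genes), 3 (12), 15 (5) and 9 (2). In shock resistant rats the higher genes at an unadjusted p under 0.05 numbered 6 of 19 on chromosome 16, 4 of 12 on chromosome 3, 1 of 5 on chromosome 15 (Defb30) and 1 of 2 on chromosome 9 (Defb49), beside 7.22% of all genes and 12.3% of the other low genes. The median differences were 0.18 on chromosome 16, 0.10 on chromosome 3 and 0.06 on chromosome 15, and the pair on chromosome 9, Defb49 and Defb18, read 0.69 and 0.37 higher. Among the receptors, all 7 Taar7 genes read 0.08 to 0.21 higher in shock resistant rats, and 0 of the 7 had an unadjusted p under 0.05. Of the 3 Taar8 genes, Taar8a and Taar8c did, with differences of 0.21 and 0.17, as did Taar5, the mouse receptor for trimethylamine, at 0.16 and Taar4. A second, dimmer feature of Taar8a, with a mean of 4.04, differed from control by 0.03 for shock resistant rats (unadjusted p 0.602, limma) and by −0.05 for shock sensitive rats.

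Within groups the members varied together only weakly. After removal of group means, the 703 pairs of Defb genes had a median r of 0.20 over 18 arrays, the 136 Taar pairs one of 0.02 and the 646 pairs between the families one of 0.07. Neighbouring Defb genes in the annotation had a median of 0.22 over 34 pairs and neighbouring Taar genes one of 0.10 over 16. With the median of the other low genes, 37 of 38 Defb genes and 13 of 17 Taar genes correlated positively, with medians of 0.45 and 0.17.

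Taar7d and Taar7e are shown because theirs was the most similar upstream sequence among the pairs of members compared. Of the 250 bases before each start, 245 are equal (98.0%), and the 5 that differ are in capitals. Both lie on the minus strand, at chr1:23229650-23229899 for Taar7d and chr1:23222041-23222290 for Taar7e (RefSeq, GRCr8):
Taar7d: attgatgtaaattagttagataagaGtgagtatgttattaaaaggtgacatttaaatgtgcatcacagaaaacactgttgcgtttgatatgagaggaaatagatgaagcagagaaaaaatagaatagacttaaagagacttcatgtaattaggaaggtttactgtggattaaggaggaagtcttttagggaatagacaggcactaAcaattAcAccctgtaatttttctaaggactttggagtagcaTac
Taar7e: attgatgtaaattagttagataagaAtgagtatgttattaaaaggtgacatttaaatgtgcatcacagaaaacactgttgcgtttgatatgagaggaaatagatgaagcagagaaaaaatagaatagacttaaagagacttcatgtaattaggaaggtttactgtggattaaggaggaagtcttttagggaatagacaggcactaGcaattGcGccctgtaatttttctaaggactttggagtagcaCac

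Taar7d read 3.96 to 4.85 in controls (median 4.36) and Taar7e 4.56 to 5.03 (median 4.91). Their values correlated at r = −0.32 over the 18 arrays after removal of group means, the lowest of the 16 neighbouring Taar pairs, which ran from −0.32 to 0.34. The 11 Taar pairs with an upstream identity of at least 70% had a median r of 0.13, from −0.57 to 0.51. Closely related copies can share signal on an array, so the values of single Taar7 genes are uncertain as to which copy they measure.

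Genes that act with the 2 families gave no call in any comparison. Their counts at an unadjusted p under 0.05 stand beside 7.22% of all genes higher and 4.20% lower for shock resistant rats, against 4.56% and 1.53% for shock sensitive rats. Among the other low genes 12.3% and 7.96% were higher in the same order. Of 15 measured genes of trace amine synthesis, transport and breakdown, 5 were higher and 0 lower in shock resistant rats at an unadjusted p under 0.05, and 3 and 0 in shock sensitive rats. Inmt, an N-methyltransferase of tryptamine, had the smallest p in both, at 0.24 ± 0.06 and 0.19 ± 0.06 (SE) with adjusted p of 0.265 and 0.643. The noradrenaline transporter gene Slc6a2 read 0.16 higher in shock resistant rats and the dopamine transporter gene Slc6a3 0.14 higher in shock sensitive rats, with adjusted p of 0.296 and 0.797 (limma). All 3 genes had group means of 4.31 to 5.02, below the negative control median.

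Of 16 measured genes of trace amine receptor signalling, 1 was higher and 2 lower in shock resistant rats, and 1 higher and 0 lower in shock sensitive rats. Kcnj3, a subunit of the potassium channels that G proteins open, read 8.47 ± 0.34 in control and 7.86 ± 0.28 in shock resistant rats (SD, n = 6 each), with an adjusted p of 0.272 (limma). Gng13, a G protein gamma subunit, read 0.22 higher in each shock group, with adjusted p of 0.327 in shock resistant and 0.731 in shock sensitive rats. Between the shock groups, beside 2.63% of all genes higher and 3.77% lower, 3 were higher and 2 lower. These included Kcnj6, another subunit of these channels, at −0.77 ± 0.31 (SE). Adcy5, the main striatal adenylyl cyclase, was also among them at 0.76 ± 0.31 (SE), both with an adjusted p of 0.753 (limma). Adcy5 is also 1 of the 15 medium spiny neuron markers, of which all 15 read higher in shock resistant than in shock sensitive rats (median 0.67). Its part in this difference was not tested.

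Of 15 measured receptors and partners of beta-defensins, 1 was higher and 1 lower in shock resistant rats. Mc1r, a melanocortin receptor that a beta-defensin binds in dogs, read 5.79 ± 0.06 in control, 6.02 ± 0.06 in shock resistant and 5.97 ± 0.11 in shock sensitive animals (SD, n = 6 each), with adjusted p of 0.194 and 0.549 against control (limma). Mc4r, the related brain receptor for melanocortins, read 0.39 lower in shock resistant rats with an adjusted p of 0.402. In shock sensitive rats 2 were higher and 2 lower. Of 19 other antimicrobial genes, 5 were higher and 0 lower in shock resistant rats and 2 were higher and 1 lower in shock sensitive rats. These included the protease inhibitor Slpi, 0.26 and 0.27 higher with adjusted p of 0.356 and 0.731. The alpha-defensin gene Defa5 read 0.18 higher in shock resistant and Hamp, the gene of hepcidin, 0.22 higher in shock sensitive rats, with adjusted p of 0.326 and 0.806.

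Of 8 measured genes of the epididymis and sperm, the tissue in which many Defb genes are active, 2 were higher and 0 lower in each shock group. Both were lipocalin genes of the epididymis. Lcn6 read 5.54 ± 0.11 in control, 5.82 ± 0.15 in shock resistant and 5.75 ± 0.04 in shock sensitive animals (SD, n = 6 each), with adjusted p of 0.241 and 0.603 against control (limma). Lcn8 read 0.20 and 0.22 higher, with adjusted p of 0.311 and 0.610. Over the 5 lists, the median differences in shock resistant rats ran from −0.004 for the defensin receptors to 0.095 for the other antimicrobial genes, beside 0.010 for all genes.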

How the data were processed

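Per the labels' protocols, Qiagen chemistry gave the total RNA and the Affymetrix WT Plus kit the biotin-labelled cDNA. The deposited values were taken as log2 from their range. The submitters' processing notes name Affymetrix Expression Console, without its version, summarisation or normalization. Of 70580 features, 1738 were controls, and 0 values were missing. Symbols came from the platform annotation, updated by gene number through RefSeq (GRCr8). Taar8a had 2 features, and a feature that names Defb17 and a pseudogene together was left out.

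One limma fit (version 3.58.1, R 4.3.3) used all 18 arrays with group as the only term and no filter on low values, with Benjamini-Hochberg adjustment over 22093 genes and a threshold of 0.05. The fit was tested on simulated data with independent errors for each gene and array. No shift shared by the low genes of an array was simulated, so that test does not cover such shifts. Named were Taar1, Defb1, members past the adjusted threshold, the 4 higher and 4 lower members with the smallest p per comparison, the 3 highest and lowest per family, and the 2 smallest p per pathway list. Members, lists and this rule were chosen with earlier results of these data known. The lists held 15 of 16 genes of trace amine metabolism, 16 of 17 of receptor signalling, 15 of 16 defensin receptors, 19 of 21 antimicrobial and 8 of 14 epididymal genes. Alternatives were other scalings, covariates, variance models, feature rules, a replicate block and each array left out. A planned comparison of protein sequences was not made, and upstream sequence was compared instead. Nothing in the labels says that arrays of a group came from separate experiments beyond separate rats. Motifs and figures used Python 3.11.15, pandas 2.3.3 and matplotlib 3.10.9.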

Additional observations from a re-analysis of the deposited data

Results flagged for a closer look

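Each of the 55 members was screened in each of the 3 groups, with the array medians of both families and of the negative controls, 174 sets of 6 arrays in all. In 14 of them, each a member, 1 array stood apart from the other 5 by a gap past Dixon's 95% critical value. By chance about 5% of sets would do so. Among controls, Defb14 read 4.48 on replicate 5, above the next array at 4.24, and Defb43 read 3.75 on replicate 1, below 3.85.

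Among shock resistant rats, replicate 1 held the highest values of Defb2, at 5.24 against 5.12, of Defb51, at 5.13 against 4.77, and of Taar7b, at 5.07 against 4.64. The same array held the lowest value of Taar7a, at 3.77 against 4.18. Defb19 read 3.90 on replicate 2, above 3.61. Defb36 read 3.94 on replicate 3, below 4.09, and Defb22 read 5.17 on replicate 4, below 5.43.

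Among shock sensitive rats, replicate 3 held the highest values of Defb21, at 5.16 against 5.07, of Defb29, at 3.87 against 3.70, and of Defb4, at 5.82 against 5.55. The Defb21 value was identical on replicates 1, 2, 4 and 5, and that of Defb4 on replicates 2 and 5. Both repeated values also stood on control replicates 4 and 6 and shock-resistant replicate 2. Other members, such as Defb22, Defb9 and Taar7e, held identical values on several arrays too. Dixon's critical value does not allow for such ties. Defb37 read 5.03 on replicate 2, below 5.19, and Defb1 read 4.03 on replicate 5, below 4.25.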

How the results depend on the processing

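The 1 member past the adjusted threshold in shock resistant rats against control, Defb49, fell to 0 under quantile normalization, negative control centring, all features tested, genes at or above the negative control median alone (where Defb49 is left out), a replicate block (adjusted p 0.107), the 2 groups alone, and centring on other low genes, which was chosen after seeing the data. For both shock groups together the count rose from 0 to 1 with the negative control median as a covariate, trend and robust variance, array weights, or the first residual principal component. Over all genes, 3, 2, 3 and 2 passed in the same order. Members at an unadjusted p under 0.05 went from 16 to 10, 10, 2 and 9 in shock resistant rats under quantile normalization, median centring, the level filter and low-gene centring. Of all genes tested, 3.89%, 3.30%, 2.44% and 1.92% were higher in the same order, and 4.39%, 7.77%, 6.53% and 13.5% were lower. Shares under the filter are of the 11573 genes it kept. In shock sensitive rats the member counts went from 13 to 2 under the filter, 20 with array weights and 7 with low-gene centring. Of all genes tested, 1.29%, 7.35% and 1.36% were higher in the same order, and 1.78%, 3.18% and 5.31% were lower. For both groups together they went from 19 to 2 under the filter, beside 1.65% of genes higher and 3.56% lower. Between the shock groups the members went from 1 to 0 with negative control centring or the filter. They went to 2 without control replicate 1 and shock-sensitive replicate 4, also chosen after seeing the data. The shares of genes in these 3 fits were 2.94%, 3.08% and 2.27% higher and 1.02%, 5.61% and 2.58% lower. The filter kept 3 Defb genes, with medians of 0.337, 0.338 and 0.307 in shock resistant, shock sensitive and both groups. Members above background were 4 with the negative control median as the limit.

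With each array left out in turn, members at an unadjusted p under 0.05 ranged from 12 to 21 in shock resistant, 9 to 16 in shock sensitive and 16 to 22 in both groups against control, and from 1 to 3 between the shock groups. Member calls past the adjusted threshold ranged from 0 to 1, 0 to 0, 0 to 1 and 0 to 0. Over all genes such calls ranged from 0 to 7, 0 to 1, 0 to 2 and 0 to 1. The Defb medians ranged from 0.117 to 0.170, 0.0973 to 0.171, 0.102 to 0.149 and 0.0035 to 0.0423, and the Taar medians from 0.103 to 0.158, 0.0813 to 0.125, 0.107 to 0.165 and −0.0087 to 0.0262. Taar1 in shock sensitive rats ranged from −0.0132 to 0.0650 with arrays left out and changed sign to −0.0153 under quantile normalization, −0.00071 with medians centred, −0.0272 with low-gene centring, −0.0103 without control replicate 2, −0.0132 without control replicate 3 and −0.0132 without shock-sensitive replicate 6. Defb14 in shock resistant rats ranged from −0.0810 to 0.0019 and turned to the latter without control replicate 5. The causes were not tested. The labels do not say that replicate numbers pair the arrays. The 18 pairs of the same number correlated at −0.31 to 0.29, with 5 over 0.1. Pairs of different numbers were not compared, so a pairing by number was not excluded. The block moved calls over all genes in shock resistant rats from 4 to 2, and members at an unadjusted p under 0.05 from 16 to 15. With it, 6.90% of all genes were higher and 4.09% lower at that level. Both groups together could not be fitted with the compared groups alone.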
